A study of Mus musculus with 6 samples.

Results

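The 8 genes described here encode the DNA methyltransferases Dnmt1, Dnmt3a and Dnmt3b, the cofactors Dnmt3l and Uhrf1, and the TET dioxygenases Tet1, Tet2 and Tet3. They were taken by gene symbol from the 32285 genes of each count matrix, and all 8 had UMIs (unique molecular identifiers, each counting 1 captured RNA molecule) in every marker-named lineage. Their levels were followed across 6 stages of mouse development around implantation, in cells named from markers as epiblast, endoderm, parietal endoderm, trophoblast and trophoblast giant cells.

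DNA methylation in mammals sits mostly on cytosines that precede a guanine. Dnmt3a and Dnmt3b set new methyl groups, and Dnmt3l, which has no catalytic activity of its own, binds and stimulates them. After replication Uhrf1 binds the half-methylated sites and recruits Dnmt1, which copies the marks to the new strand. TET enzymes oxidise methylcytosine to hydroxymethylcytosine and further products, which opens a route to demethylation. Genome methylation is low in the blastocyst and is laid down again around implantation, to a higher level in the embryo proper than in the extraembryonic lineages.

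Single-cell RNA was captured with 10x 3′ chemistry from embryos whose mothers were B6SJLF1/J and whose fathers were B6CBAF1/J. There was 1 library per stage, at E3.5 and E4.5, in the blastocyst before implantation, and at E4.75, E5.0, then E5.25 and E5.5, around and after it. Females of 4 weeks that had received PMSG and hCG, the hormones used for superovulation, gave the embryos flushed at E3.5 and E4.5. The E4.75 to E5.5 embryos were dissected from 7-week-old females, for which the labels name no hormones. Cells were freed with Accumax, and the E5.5 suspension, like those of E3.5 and E4.5, passed a 20 µm filter. The number of embryos pooled is not given in the labels. Mother's age, hormones, collection and the filter all switch between E4.5 and E4.75 and cannot be told apart from stage there.

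The libraries held 1788882 to 112702098 UMIs in 152 to 27302 barcodes, and 20817 of 42328 barcodes were used as cells, from 88 at E3.5 to 8102 at E5.5. At E5.5, 68.1% of the barcodes had fewer than 1500 detected genes and were left out, the median cell had 5104 UMIs against 10485 to 31090 at the other stages, and 1915 cells fell in clusters with markers of more than 1 lineage and were left out of the classes. Any pair of libraries shared at most 11 barcodes. The names used here stand for marker-based, X-like classes, of 6596 epiblast, 5516 endoderm, 4236 trophoblast, 1196 parietal endoderm and 612 giant cells. Every class with at least 30 cells in a library was used, which gave 24 combinations of stage and class: epiblast and trophoblast at all 6 stages, endoderm from E4.5, parietal endoderm from E4.75 and giant cells from E5.0. In each of them at least 5 markers of its own list reached 10 CPM, and 1 list had a marker at 0, the giant cells at E5.5. The E3.5 epiblast class also held 690 CPM of summed endoderm markers and 1485 CPM of parietal endoderm markers. In E4.5 epiblast these were 161 and 219 CPM. Only 2 cells were named endoderm at E3.5. Epiblast differences between E3.5 and E4.5 may therefore compare unlike groups of cells. At E4.5 only 1 cell was named parietal endoderm, and the endoderm class held 6626 CPM of summed parietal endoderm markers. In the endoderm class of E4.75 and of E5.5, beside a separate parietal class, these were 4415 and 2928 CPM. Endoderm differences between E4.5 and later stages may likewise compare unlike groups of cells. The embryonic classes were held by different clusters at different stages. Epiblast was cluster 28 at E3.5, 24 at E4.5, 15 and 20 at E4.75, and mostly 1, 2, 4 and 5 later. Endoderm was cluster 17 at E4.5, 12 at E4.75, and mostly 0, 7, 9 and 19 later. Trophoblast was cluster 23 at E3.5 and E4.5, 18 at E4.75, and mostly 3, 6 and 8 later, and parietal endoderm was cluster 22 at E4.75 and 11 later.

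In GRCm38 with GENCODE M21, whose identifiers matched for all 8, Dnmt3a lies at chr12:3806007-3914443, Dnmt3b at chr2:153649450-153687730, Dnmt3l at chr10:78041947-78063622 and Uhrf1 at chr17:56303321-56323486, all on the plus strand. On the minus strand lie Dnmt1 at chr9:20907209-20959888, Tet1 at chr10:62804570-62908996, Tet2 at chr3:133463679-133545139 and Tet3 at chr6:83362373-83459084.

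A level is the summed UMIs of a gene over the cells of a class, per 1000000 UMIs of that class (CPM). Since each stage is 1 library, the 95% intervals (exact Poisson for levels, exact binomial for fold changes) cover counting error only, no difference has a replicate check, and no p-value is given. A gene was called higher or lower where its CPM differed at least 2-fold and reached 10 CPM in either group. Counts from the 3′ end do not tell isoforms apart, so Dnmt3a, Dnmt3b, Dnmt1 and Dnmt3l each stand for all their transcripts. RNA freed from other cells also enters droplets. The level of Pou5f1, an epiblast gene, was taken in each other class for a rough scale. It was multiplied by the ratio of the member to Pou5f1 in epiblast of the same library. The product is given below as the share of the member's level that is matched by Pou5f1. This share also counts any Pou5f1 made by the class's own cells, so it does not measure free RNA alone. In the E4.5 library Pou5f1 was at 105 CPM in endoderm and 7.34 in trophoblast. At E4.75 it was at 95.4 CPM in parietal endoderm and 7.21 in trophoblast.

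The 250 bases before a transcript start of Dnmt3b, Dnmt3l and Uhrf1 are shown because the ratio of Dnmt3l to Dnmt3b went opposite ways in epiblast and parietal endoderm, and Uhrf1 had the largest upward difference of the 8 genes between E4.5 and E5.5 in endoderm and in trophoblast. They were read from RefSeq's GRCm38.p6 annotation, 5′ to 3′ on the gene's strand, with each CG dinucleotide, the target of methylation, in capitals. Starts whose window overlapped an exon are not printed.
Dnmt3b, chr2:153649199-153649448, plus strand: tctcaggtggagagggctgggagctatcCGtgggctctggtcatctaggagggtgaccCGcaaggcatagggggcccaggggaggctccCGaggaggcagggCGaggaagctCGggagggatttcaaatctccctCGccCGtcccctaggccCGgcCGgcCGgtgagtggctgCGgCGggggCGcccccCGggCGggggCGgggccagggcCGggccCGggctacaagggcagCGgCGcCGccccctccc
Dnmt3l, the second start, chr10:78049592-78049841, plus strand: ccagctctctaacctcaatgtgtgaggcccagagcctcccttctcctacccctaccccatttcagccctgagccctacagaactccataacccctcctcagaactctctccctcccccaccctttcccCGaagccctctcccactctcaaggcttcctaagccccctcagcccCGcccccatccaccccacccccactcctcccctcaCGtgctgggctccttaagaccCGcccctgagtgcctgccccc
Dnmt3l, the third start, chr10:78055085-78055334, plus strand: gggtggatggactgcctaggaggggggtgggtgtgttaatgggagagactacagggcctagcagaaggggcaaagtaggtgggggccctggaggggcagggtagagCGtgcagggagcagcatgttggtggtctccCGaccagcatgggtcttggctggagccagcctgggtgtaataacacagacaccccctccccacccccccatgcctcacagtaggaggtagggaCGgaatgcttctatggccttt
Uhrf1, the second start, chr17:56304063-56304312, plus strand: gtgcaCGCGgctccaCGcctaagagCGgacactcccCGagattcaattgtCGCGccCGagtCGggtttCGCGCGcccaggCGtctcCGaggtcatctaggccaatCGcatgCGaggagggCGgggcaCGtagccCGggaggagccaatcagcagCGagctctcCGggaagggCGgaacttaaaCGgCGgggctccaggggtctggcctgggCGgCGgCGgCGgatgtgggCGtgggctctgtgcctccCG
Among 32851 windows of the same length, with a median of 6 CG, the Dnmt3b window had 21 CG, more than 83.7% of windows, and the Uhrf1 window 30, more than 94.1%. The Dnmt3l windows had few, 4 at the second start (more than 37.8% of windows) and 3 at the third (more than 29.0%). The GC box GGGCGG, searched on both strands, occurred 3 times each in the Dnmt3b and Uhrf1 windows, in 2 places at the second Dnmt3l start and not at the third, and 32.7% of all windows held it. An E2F word (TTTCCCGC, TTTCGCGC, TTTGCCGC or TTTGGCGC, both strands) was found in the Uhrf1 window and in 1.86% of all windows. The words are a description of the sequence, and the counts do not tell which start was used.

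Dnmt3b, the de novo enzyme with the most UMIs of the 8 genes, was highest in epiblast and higher there at each later stage. Over the 6 stages in order its epiblast level was 161, 671, 1418, 1709, 1792 and 2173 CPM (95% interval of the last 2151 to 2196). The ratio of E5.5 to E4.5 was 3.24 (3.105 to 3.38), of which a factor of 2.11 lay between E4.5 and E4.75. Endoderm had 356 CPM at E4.5, then 867, 825, 588 and 636, with its highest level at E4.75 and E5.0. Trophoblast had 235, 138, 275, 223, 209 and 289 CPM over the 6 stages, and giant cells 122, 119.5 and 176 from E5.0. The E5.5 epiblast stood 7.53-fold above trophoblast and 3.42-fold above endoderm. Parietal endoderm went the other way from epiblast, with 582, 274, 149.9 and 115 CPM from E4.75, the last of which is 19.0-fold below the E5.5 epiblast. In parietal endoderm 34.6%, 73.3%, 79.6% and 88.1% of these levels were matched by Pou5f1, most of the level from E5.0 on. How much of the parietal endoderm Dnmt3b level was free RNA was not tested. The matched share was 9.84% in E5.5 endoderm, 19.5% in E5.5 trophoblast, 22.7% to 29.9% in giant cells and 40.2% in E4.5 endoderm.

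**Figure D1:**
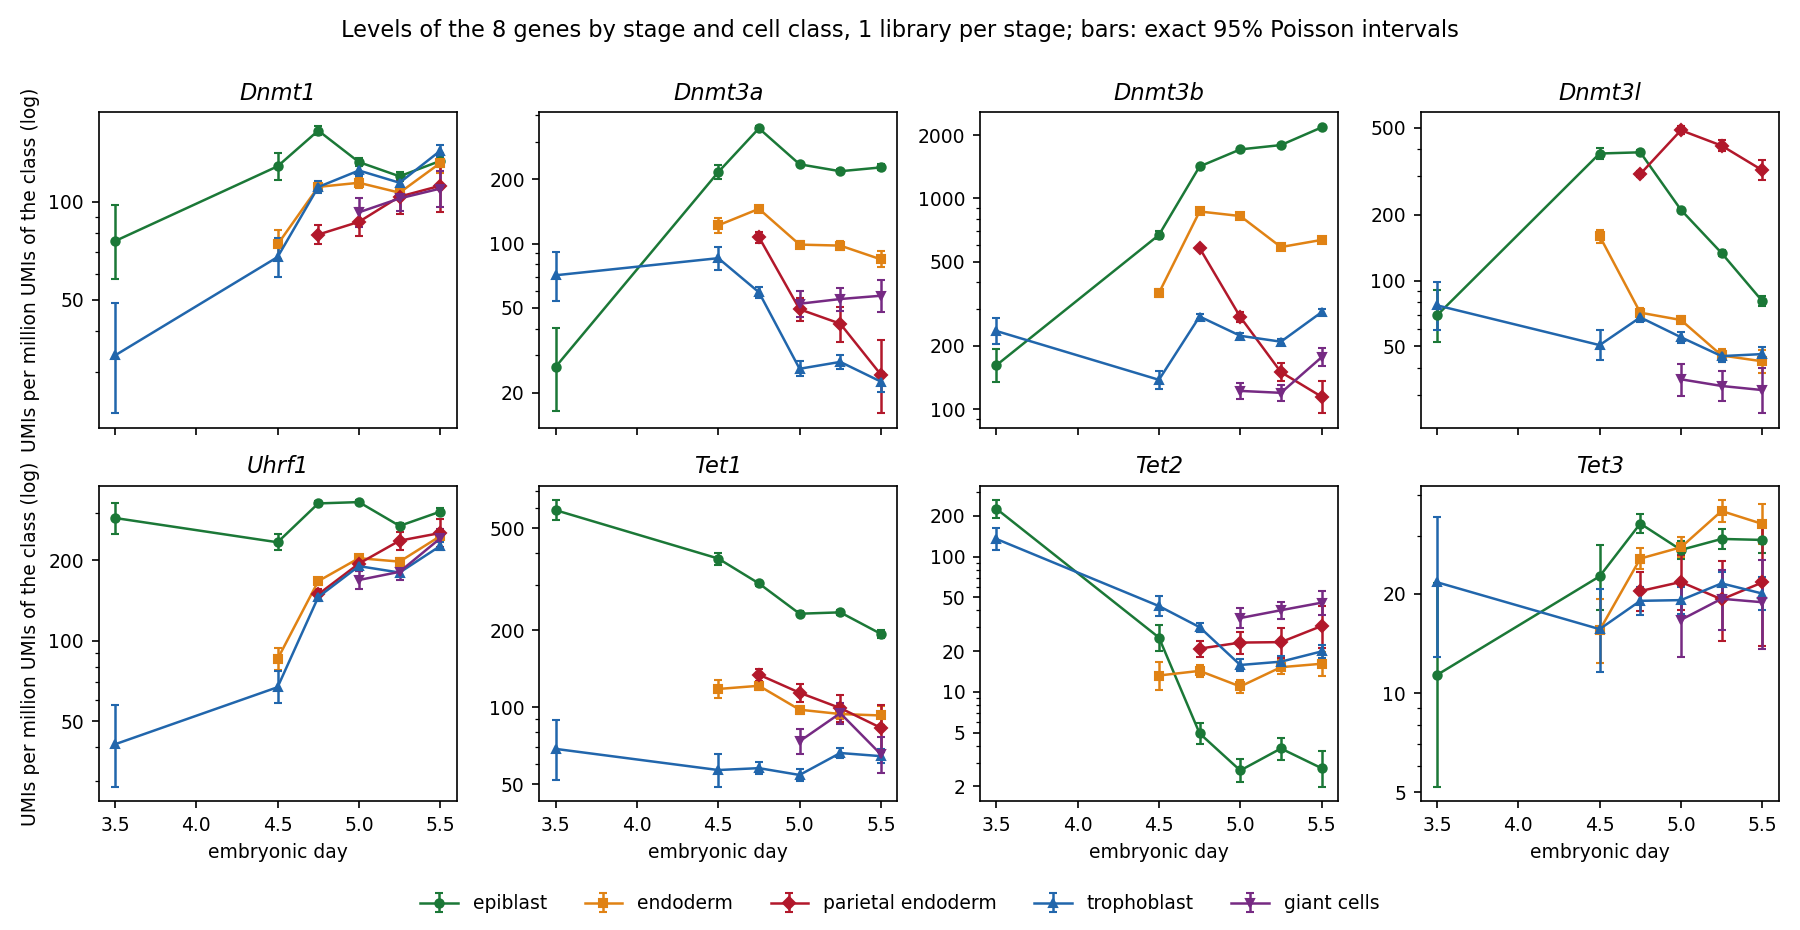
Levels of the 8 genes by stage, 1 panel per gene, on a log axis of CPM, with 1 line per class and bars for exact 95% Poisson intervals. Dnmt3b in epiblast reaches 2173 CPM at E5.5, Dnmt3l is highest in parietal endoderm, and Tet2 in epiblast lies at 2.63 to 4.94 CPM from E4.75.

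Dnmt3a, the other de novo enzyme, peaked in epiblast at E4.75. Its epiblast levels, in stage order, were 26.5, 216, 347, 235, 218 and 227 CPM, so that E5.5 and E4.5 differed by a factor of only 1.05. Endoderm had 122, 146, 98.9, 97.9 and 84.4 CPM from E4.5. The level was lower at later stages in trophoblast, with 71.1, 85.5, 59.2, 26.0, 28.0 and 22.6 CPM, and in parietal endoderm, with 107, 49.3, 42.2 and 24.4. Giant cells kept 52.3, 55.0 and 57.0 CPM, 2.52-fold above trophoblast at E5.5, where epiblast stood 10.1-fold above trophoblast. Pou5f1 matched 26.0% of the trophoblast level at E5.5 and 34.4% to 56.0% of the parietal levels. Relative to Dnmt3b of the same class, Dnmt3a had 10.46 UMIs per 100 Dnmt3b UMIs in E5.5 epiblast, 13.3 in endoderm, 7.83 in trophoblast and 32.3 in giant cells. With the mixed clusters put into their best class, the log2 difference between E5.5 and E4.5 trophoblast was -0.62 in place of -1.55, and that between giant cells and trophoblast 0.09 in place of 1.04, on the scale of log2 of CPM plus 10.

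Dnmt3l, the catalytically inactive cofactor, was unlike both enzymes in being highest in parietal endoderm, from E5.0 on. In epiblast it was lower at each successive stage after E4.75, where Dnmt3a also lay below its E4.75 level. Epiblast had 69.4, 382, 387, 211, 134 and 80.7 CPM in stage order, and the E5.5 level was 4.73-fold below that of E4.5. Parietal endoderm had 308, 488, 415 and 320.3 CPM from E4.75 (95% interval at E5.5 288 to 355). Endoderm had 160.1 CPM at E4.5, then 71.4, 66.1, 45.5 and 42.8, and was 3.74-fold lower at E5.5 than at E4.5. The E4.5 endoderm class was not split from parietal endoderm, which was a class of its own from E4.75. The part of this change of class in the endoderm difference was not tested. Trophoblast stayed between 45.2 and 77.1 CPM at all stages and giant cells between 31.6 and 35.4. Parietal endoderm exceeded endoderm 4.31-, 7.39-, 9.12- and 7.49-fold from E4.75 to E5.5 (interval of the last 6.37 to 8.81), and from E5.0 it exceeded epiblast 2.31-, 3.101- and 3.97-fold. The share matched by Pou5f1 was smaller than for Dnmt3b, at 17.8% of the parietal level at E4.75 and 5.08%, 2.15% and 1.17% later. In E4.5 endoderm it was 50.9%.

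At E5.5, 61.7% of parietal endoderm cells had a Dnmt3l UMI (median depth 3921 UMIs), and 49.0% after thinning to 3000 UMIs each the 202 of 264 cells that had at least 3000. The shares in endoderm (median depth 4368) were 13.4% of 1260 cells and 8.49% of 1001. Cluster 26, an unnamed group of 82 cells with a summed uterine epithelium marker level of 1140 CPM and a median of 6671 UMIs, served as a low reference and had 8.54% and 2.44%.

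Within a class, the balance of cofactor to enzyme moved in opposite directions in epiblast and parietal endoderm. Epiblast held 43.0 Dnmt3l UMIs per 100 Dnmt3b UMIs at E3.5, 56.9 at E4.5, then 27.3, 12.3, 7.47 and 3.71. Parietal endoderm held 52.9, 178, 277 and 279.5 from E4.75 on, so Dnmt3l UMIs outnumbered those of Dnmt3b from E5.0. Endoderm went from 45.0 at E4.5, before parietal endoderm was a class of its own, to 8.23 at E4.75 and 6.73 at E5.5. Trophoblast stayed between 16.0 and 36.8 and giant cells between 17.9 and 29.0.

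**Figure D2:**
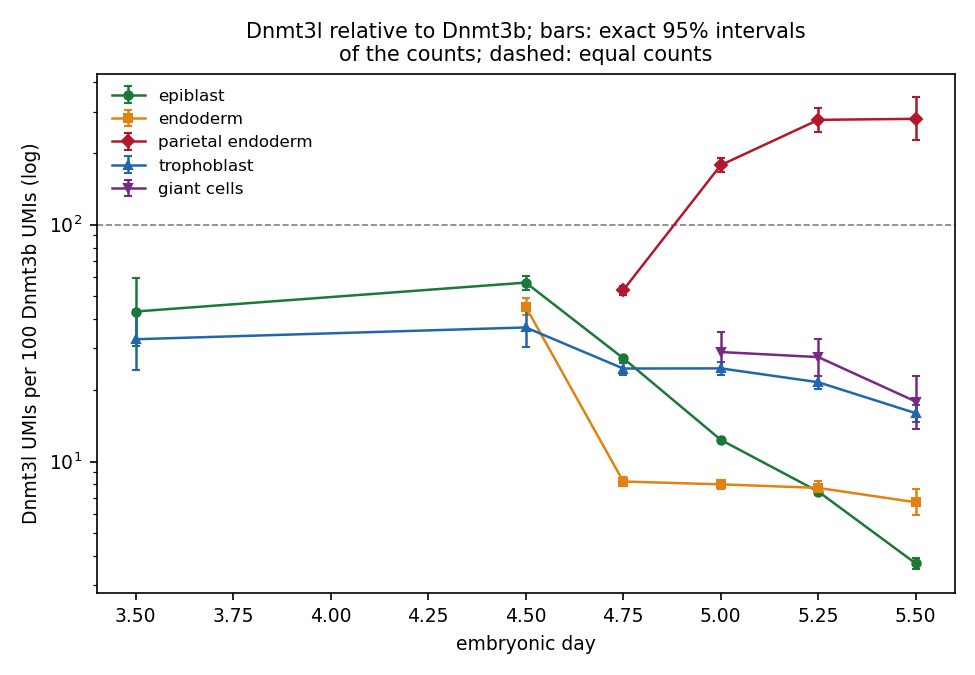
Dnmt3l UMIs per 100 Dnmt3b UMIs by stage on a log axis, 1 line per class, with exact 95% intervals. The epiblast line goes down from 56.9 at E4.5 to 3.71 at E5.5 while the parietal endoderm line goes up from 52.9 to 279.5.

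The gene Aire, a transcriptional regulator best known from the thymus, overlaps Dnmt3l on the opposite strand in the GENCODE M21 annotation, and the sources used here do not give the strand setting of the counting. Aire had 11.2 UMIs per 100 Dnmt3l UMIs over all named classes. Nearly all of them came from epiblast, where its level was 0 (0 UMIs of 792820, which allows up to 3.78 CPM), 38.3, 68.8, 40.8, 30.5 and 11.97 CPM in stage order, against 0.253 to 2.49 CPM in the other classes where it was detected. Parietal endoderm had 22, 8, 1 and 1 Aire UMIs beside 3183, 2426, 1121 and 355 Dnmt3l UMIs. So the pair did not share one ratio across classes. The antisense genes of Dnmt3b (Dnmt3bos, 0.128 UMIs per 100) and of Tet2 (Gm42567, 3.07 per 100) and the Dnmt3b copy Dnmt3c (0.0378 per 100) had few UMIs over all named classes together.

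**Figure D3:**
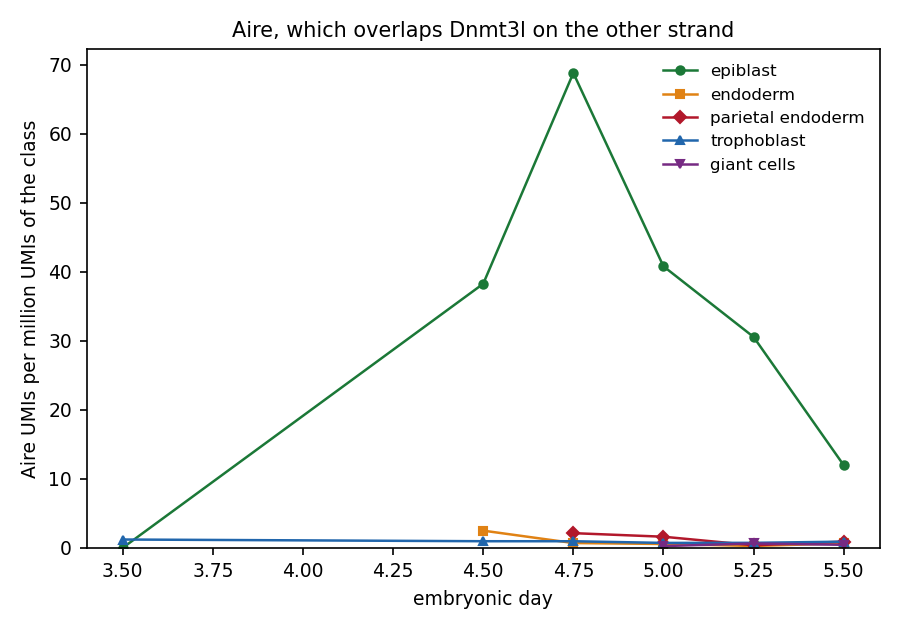
Level of Aire, which overlaps Dnmt3l on the opposite strand, in CPM (UMIs per 1000000 UMIs of the class) by embryonic day, with 1 line per class. Epiblast reaches 68.8 CPM at E4.75, and the other 4 classes lie at 0.253 to 2.49 CPM.

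The maintenance pair differed less between lineages at the last stage than the de novo genes. Dnmt1 in epiblast was at 75.7, 128, 165, 132, 119.6 and 133 CPM over the 6 stages. In trophoblast it went from 33.7 CPM at E3.5 and 67.6 at E4.5 to 111, 125, 114 and 143, a 2.12-fold higher level at E5.5 than at E4.5. Endoderm had 73.9, 111, 114, 107 and 131 CPM, parietal endoderm 79.3, 86.7, 104 and 112, and giant cells 92.8, 102 and 109.7. At E5.5 the ratio of epiblast to endoderm was 1.01 and that of epiblast to trophoblast 0.931, so the 5 classes lay between 109.7 and 143 CPM.

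Uhrf1, the reader that brings Dnmt1 to half-methylated DNA, was high in epiblast from the start, with 288, 233, 326, 329.7, 269 and 304 CPM. The other lineages lay nearer to it at later stages: endoderm had 85.4, 167, 203, 197 and 246 CPM, 2.88-fold higher at E5.5 than at E4.5 (2.59 to 3.21). Trophoblast had 41.0, 67.0, 146, 190.0, 179.7 and 226 CPM, 3.37-fold higher at E5.5 than at E4.5. Parietal endoderm had 149, 194, 237 and 253 CPM and giant cells 169, 181 and 241. The epiblast exceeded trophoblast 3.48-fold at E4.5, and 1.34-fold at E5.5. In E4.5 endoderm Pou5f1 matched 58.3% of the Uhrf1 level, and in E3.5 trophoblast 224%, where the matched level exceeded the measured one.

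Because Dnmt1 and Uhrf1 are used at replication, their levels were set beside 15 S phase genes, none of which is among the 8. After thinning to 3000 UMIs per cell, 3 combinations (E4.5 trophoblast, E5.0 endoderm and E5.25 endoderm) had at least 30 cells both without an S phase UMI and with 4 or more. Uhrf1 was 1.32- to 1.81-fold and Dnmt1 1.36- to 1.43-fold higher in the cells with 4 or more, where in E4.5 trophoblast the cells with none held 6 Uhrf1 and 4 Dnmt1 UMIs. In cells with 1 to 3 S phase UMIs, Uhrf1 was at 55.6, 151 and 175 CPM, against 62.5, 159 and 139 with none. Dnmt1 was at 62.1, 103 and 80.0 CPM, against 41.7, 87.3 and 97.0. The levels thus did not go up steadily with S phase UMIs. The maintenance pair was not alone in this: Tet1 was 1.27- to 1.47-fold, Dnmt3b 1.06- to 1.78-fold and Dnmt3l 1.03- to 2.35-fold higher. Hells, the remodeller that aids maintenance, was 1.90- to 4.06-fold and the replication clamp Pcna 1.63- to 1.90-fold higher in the same cells. Tet2 was at 0.588 to 0.981 of the level in the cells with none, Dnmt3a at 0.422 to 1.16 and Tet3 at 0.475 to 3.27. The Tet2 and Tet3 levels in the cells with none, and the 2.35-fold of Dnmt3l, rest on few UMIs. So do the 4.06-fold of Hells and the 1.78-fold of Dnmt3b. Both come from E4.5 trophoblast, where the cells with none had 52.1 and 83.3 CPM. Cycle phase was not called from these counts.

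Tet1 was higher in epiblast than in the other classes of the same library at all 6 stages, and lower in later epiblast than in early. Its levels there were 589, 381, 305, 232, 235 and 193 CPM in stage order, the last of which is 0.508 of the E4.5 level and just short of a 2-fold difference. Endoderm had 118, 121, 97.8, 94.0 and 92.8 CPM, parietal endoderm 134, 114, 99.2 and 83.01, and giant cells 73.6, 94.8 and 65.4. Trophoblast lay between 54.3 and 68.7 CPM at all 6 stages. Epiblast was 6.71-fold above trophoblast at E4.5 and 3.01-fold above it at E5.5. Pou5f1 matched 69.1% of the Tet1 level in E4.5 endoderm and 274% in E3.5 trophoblast.

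Tet2 had the widest range of the 8 genes, 86.0-fold between its highest and its lowest level. Epiblast held 226 CPM at E3.5 (179 UMIs in 44 cells), 25.2 at E4.5, and 4.94, 2.63, 3.82 and 2.73 from E4.75 on (95% interval at E5.5 1.98 to 3.66, from 44 UMIs). The E5.5 level was 9.24-fold below that of E4.5. The step to E4.5 from the E3.5 class, which also held endoderm markers, was 8.96-fold. Trophoblast had 135, 43.1, 30.1, 15.8, 16.7 and 19.9 CPM, giant cells 35.1, 40.1 and 45.6, parietal endoderm 20.9, 23.1, 23.3 and 30.7, and endoderm 10.96 to 16.1. So from E4.75 the epiblast was the class with the lowest Tet2, 5.91-fold below endoderm and 7.30-fold below trophoblast at E5.5. A Tet2 UMI was seen in 95.5% of E3.5 epiblast cells and in 1.96% at E5.5 (median depths 17346 and 6383), or 47.7% and 0.791% after thinning. Cluster 26 had 20.7% and 10.98%. It is not a low reference for Tet2, since its level of 36.3 CPM lay above that of endoderm at any stage. Per 100 Tet1 UMIs, Tet2 had 38.3 in E3.5 epiblast and 6.62, 1.62, 1.13, 1.63 and 1.41 later, while trophoblast had 196, 75.8, 52.1, 29.1, 25.3 and 30.9 and giant cells 47.8, 42.4 and 69.8. In E3.5 trophoblast, where Pou5f1 itself was at 281 CPM, it matched 53.5% of the Tet2 level and 274% of the Tet1 level. The matched Tet1 level thus exceeded the measured one. The part of free RNA in the ratio of 196 there was not tested. From E4.5 on Pou5f1 matched at most 0.877% of the trophoblast Tet2 level.

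Tet3, the TET gene best known for its role in the zygote, was low in every class. Its levels were 11.4, 22.6, 32.7, 27.2, 29.4 and 29.2 CPM in epiblast, 15.5, 25.6, 27.7, 35.7 and 32.6 in endoderm, and 15.6 to 21.7 in trophoblast. Parietal endoderm had 19.2 to 21.7 CPM and giant cells 16.7 to 19.3. The highest level was 3.14-fold above the lowest, and endoderm at E5.5 was 2.10-fold above E4.5 (1.62 to 2.75).

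Ordered over the 24 combinations, the levels of Tet3 overlapped in their intervals for 23 of 23 neighbouring pairs, those of Dnmt1 for 21 and those of Tet2 for 20. The order was most resolved for Dnmt3b, with 12 of 23 overlapping, followed by Dnmt3l with 16, Uhrf1 and Tet1 with 17 each and Dnmt3a with 19. The highest and lowest levels differed 4.90-fold for Dnmt1, 8.05-fold for Uhrf1, 10.8-fold for Tet1, 15.3-fold for Dnmt3a, 15.5-fold for Dnmt3l and 19.0-fold for Dnmt3b. All 8 genes kept their highest level in epiblast except Dnmt3l (parietal endoderm at E5.0) and Tet3 (endoderm at E5.25).

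Read as counts between E5.5 and E4.5, the members did not all go one way. In epiblast 1 of 8 was called higher (Dnmt3b) and 2 lower (Dnmt3l and Tet2), where 13.0% of all genes tested were higher and 18.2% lower. In endoderm 2 were higher (Uhrf1 and Tet3) and 1 lower (Dnmt3l), where 17.0% of all genes were higher and 11.9% lower. The endoderm class at E4.5, unlike that at E5.5, was not split from parietal endoderm. In trophoblast 3 were higher (Dnmt1, Dnmt3b and Uhrf1) and 2 lower (Dnmt3a and Tet2), where 11.2% were higher and 15.2% lower. The median log2 difference of the 8, on the scale of CPM plus 10, was 0.06 in epiblast, 0.46 in endoderm and 0.19 in trophoblast, against 0.01, 0.18 and 0.05 for all genes. Shares of a group of 8 are coarse, and the epiblast and endoderm shares are near the background. Most of these calls needed E4.5 as the start. With E4.75 in its place, 1 stayed in epiblast (Dnmt3l), 0 in endoderm and 1 in trophoblast (Dnmt3a).

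The comparison of E5.25 with E4.75, both from 7-week-old females and unfiltered suspensions, called fewer members. Of the 7 members measured in epiblast 0 were higher and 1 lower, Dnmt3l at 2.89-fold, where 2.30% of all genes were higher and 7.54% lower. In endoderm 0 were called in either direction, where 3.61% were higher and 2.47% lower. In trophoblast 0 were higher and 1 lower, Dnmt3a at 2.12-fold, where 3.47% were higher and 7.23% lower.

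**Figure D4:**
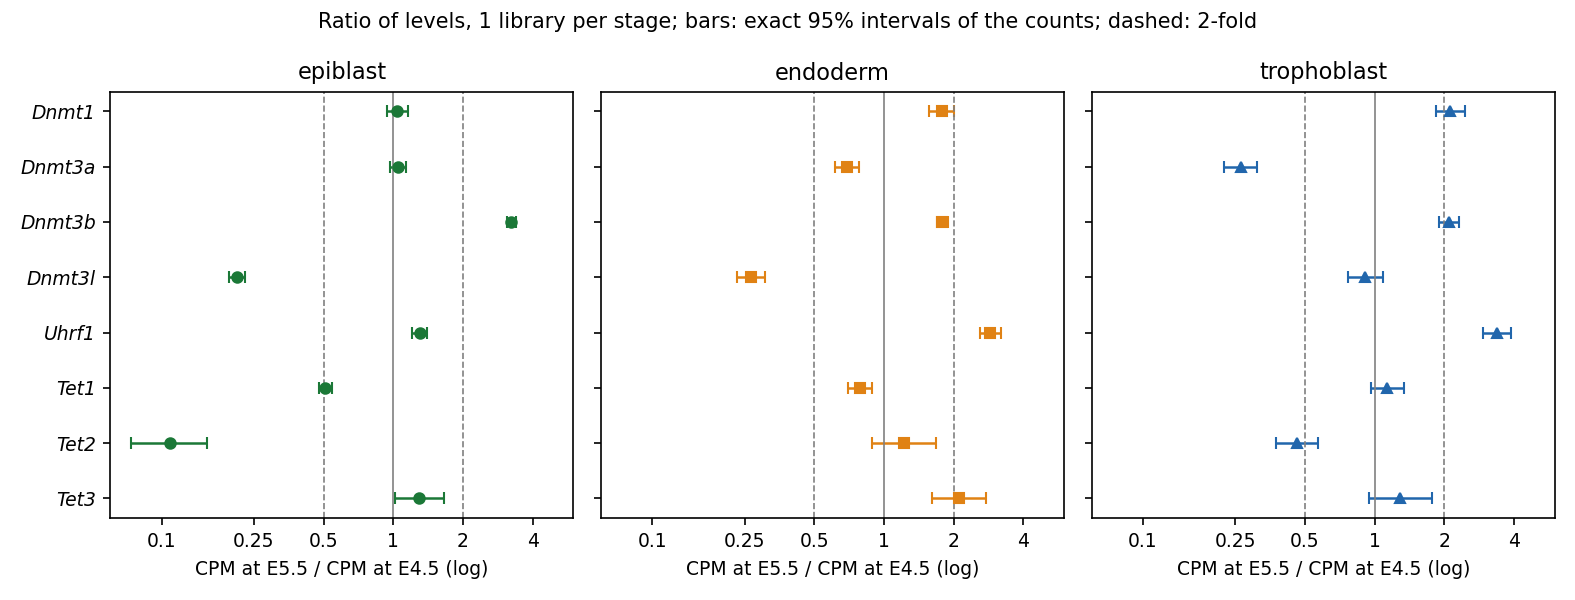
Ratio of the CPM at E5.5 to that at E4.5 for each of the 8 genes on a log axis, with 1 panel each for epiblast, endoderm and trophoblast, bars for exact 95% intervals and dashed lines at 2-fold. Epiblast has Dnmt3b at 3.24 and Dnmt3l and Tet2 well under the lower line, and trophoblast has Uhrf1 at 3.37.

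Tet1 was called higher in epiblast than in endoderm and in trophoblast at both E4.5 and E5.5, and Dnmt3a and Dnmt3b were in both comparisons at E5.5 but against trophoblast only at E4.5. At E3.5 their levels were lower in epiblast than in trophoblast. At E4.5 the epiblast exceeded endoderm in 3 of 8 members, Dnmt3l 2.39-fold, Uhrf1 2.73-fold and Tet1 3.24-fold, with 0 lower, where 15.5% of all genes were higher and 20.8% lower. It exceeded trophoblast in 5, Dnmt3a 2.53-fold, Dnmt3b 4.87-fold, Dnmt3l 7.53-fold, Uhrf1 3.48-fold and Tet1 6.71-fold, with 0 lower, where 21.6% were higher and 16.2% lower. At E5.5 the epiblast exceeded endoderm in 3, Dnmt3a 2.69-fold, Dnmt3b 3.42-fold and Tet1 2.08-fold, and was lower in Tet2, where 13.5% were higher and 28.9% lower. It exceeded trophoblast in the same 3 genes and was lower in Tet2, where 16.0% were higher and 12.4% lower. Dnmt3l and Uhrf1 were called between epiblast and both other lineages at E4.5 and neither was at E5.5. The E5.5 ratio of epiblast to endoderm for Dnmt3l, 1.89, lay near the limit and passed 2-fold under 8 of the 12 alternatives run for it.

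Parietal endoderm, the cells that lay down Reichert's membrane, was compared with the endoderm class. At E5.5, 1 member was higher, Dnmt3l, and 2 were lower, Dnmt3a 3.46-fold and Dnmt3b 5.55-fold, where 9.40% of all genes were higher and 14.6% lower. With the mixed clusters put into their best class the call for Dnmt3l stayed and those for Dnmt3a and Dnmt3b did not. Giant cells, the polyploid trophoblast cells, were higher than other trophoblast at E5.5 in 2 members, Dnmt3a 2.52-fold and Tet2 2.29-fold, with 0 lower, where 9.10% were higher and 8.47% lower. That trophoblast class pools unlike clusters. In both genes giant cells lay nearer to its cluster led by Phlda2, Ascl2 and Hand1, described below, than to the others.

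Inside the endoderm class Dnmt3l was highest in cluster 19, given as a description because the genes of the same cells made the clusters. This cluster, led by Fst, Insig1, Klhl13 and Maf, had 284 CPM at E5.0 (189 cells), 265 at E5.25 (74 cells) and 195 at E5.5 (122 cells). Clusters 0, 7 and 9 had 41.1, 38.7 and 30.1 CPM at E5.0 and 16.4, 38.0 and 4.87 at E5.5, the last from 1 UMI. Cluster 12, with 94 cells at E5.0, had 106 CPM there and a summed parietal marker level of 4203 CPM. The summed parietal endoderm markers in cluster 19 were 7710, 8942 and 9694 CPM at the 3 stages, against 1376 to 3195 in clusters 0, 7 and 9 and 17832 to 20647 in the parietal cluster 11. Whether cells or RNA of parietal endoderm account for the level in cluster 19 was not tested. Its Dnmt3b levels were 622, 342 and 411 CPM.

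Inside trophoblast, cluster 8 differed from clusters 3 and 6. Clusters 3 and 6 have the extraembryonic ectoderm genes Cdx2 and Elf5 among their leading genes, and cluster 8 is led by Phlda2, Ascl2 and Hand1, genes of the ectoplacental cone and of giant cell formation. Dnmt3a in cluster 8 was at 59.9, 65.4 and 38.2 CPM from E5.0 to E5.5, against 13.3 to 18.6 in clusters 3 and 6. Tet2 was at 26.6, 28.3 and 31.1 CPM against 10.7 to 16.3, and Dnmt3l at 85.8, 64.7 and 59.3 against 35.9 to 47.7. Giant cells had Dnmt3a at 52.3, 55.0 and 57.0 CPM and Tet2 at 35.1, 40.1 and 45.6 over the same stages. Higher Dnmt3a and Tet2 than in clusters 3 and 6 were thus shared by cluster 8 and giant cells. Dnmt3b went the other way, with 173, 169 and 223 CPM against 213 to 331. The summed giant cell markers were 1226, 1424 and 1471 CPM in cluster 8 and 222 to 296 in clusters 3 and 6, and their part in these differences was not tested.

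**Figure D5:**
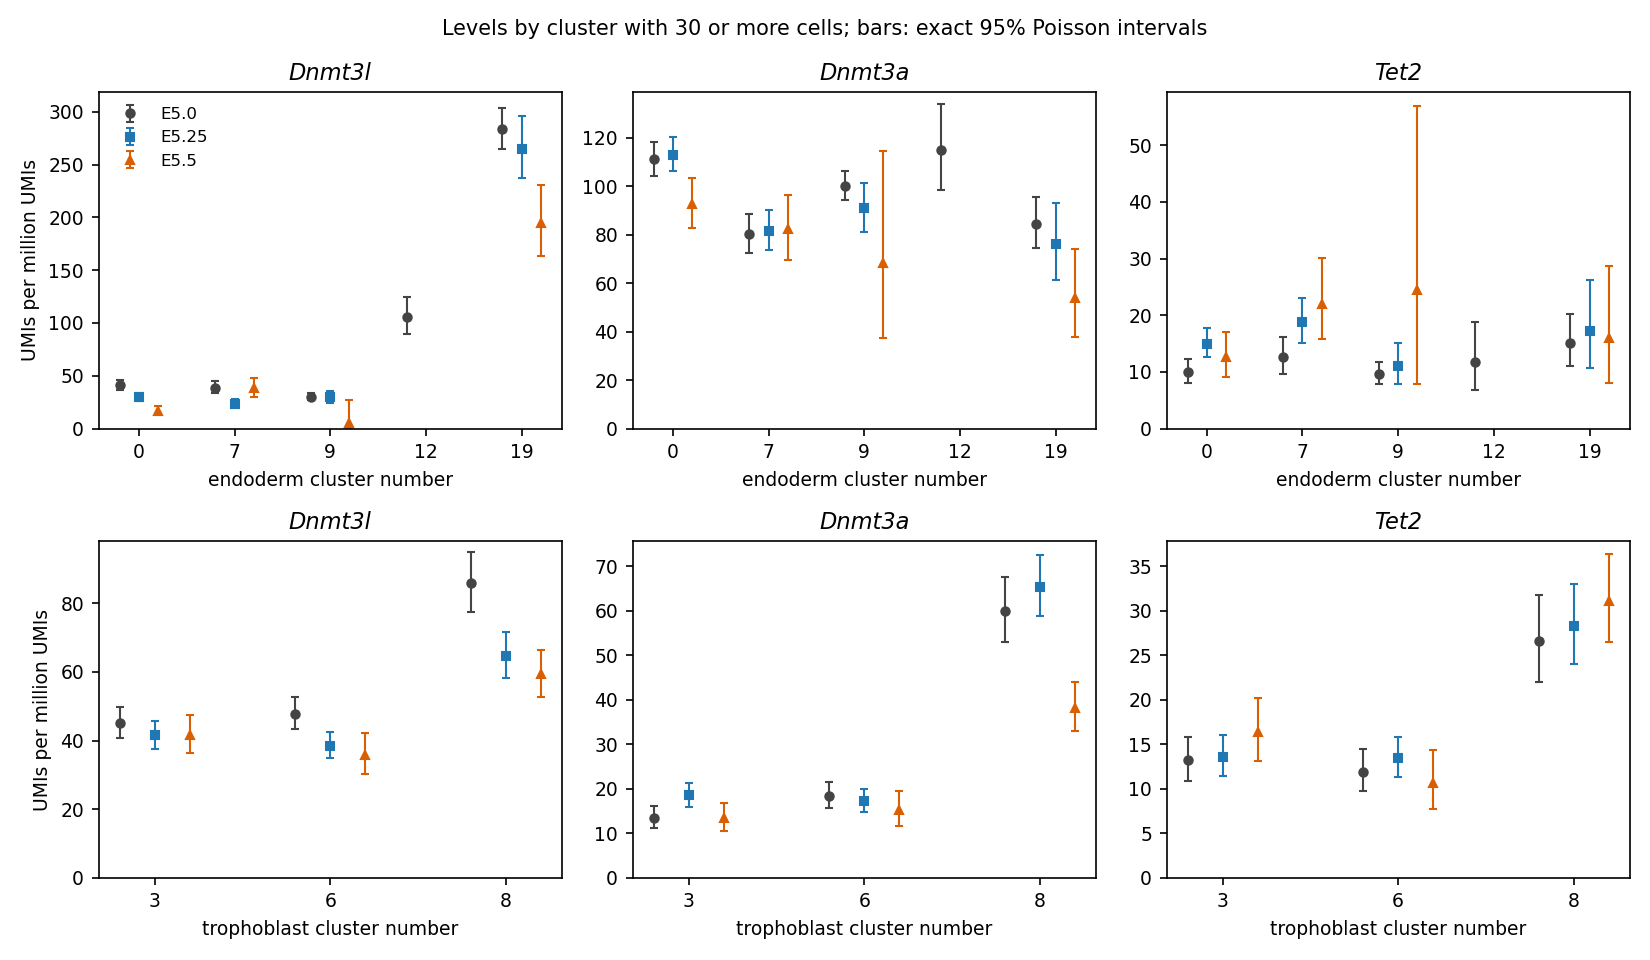
Levels of Dnmt3l, Dnmt3a and Tet2 in CPM by cluster number within endoderm (top row) and trophoblast (bottom row) at E5.0, E5.25 and E5.5, with exact 95% Poisson intervals. Dnmt3l stands out in endoderm cluster 19, at 195 to 284 CPM, and all 3 genes are higher in trophoblast cluster 8 than in clusters 3 and 6.

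Other genes of the pathway were counted from lists, between E5.5 and E4.5 and by the same 2-fold rule. The shares of all genes called higher and lower were 13.0% and 18.2% in epiblast, 17.0% and 11.9% in endoderm and 11.2% and 15.2% in trophoblast, and with lists this short most of the counts below lie near them. Of the 6 partners of maintenance, 0 were higher and 1 lower in epiblast, the DNA ligase Lig1, at 321 and 99.05 CPM. In endoderm 1 was higher (Uhrf2, a relative of Uhrf1, 2.33-fold) and 1 lower (Lig1), and in trophoblast 1 was higher (Uhrf2, 2.47-fold). Of the 7 genes of imprint protection and heterochromatin, epiblast had 1 higher, the X inactivation factor Smchd1 at 2.22-fold. It had 2 lower, the imprint-binding zinc finger Zfp57, at 45.5 and 7.26 CPM, and Dppa3, at 54.2 and 23.9 CPM. Dppa3 is a maternal factor that shields methylcytosine from oxidation by TET. Endoderm had 2 of the 7 higher (Smchd1 2.81-fold and Dppa3 2.40-fold), and trophoblast 0 of 5 measured.

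Downstream of TET, 0 of 5 measured genes were called in epiblast. In endoderm 2 of 6 were higher, Gadd45a at 2.16-fold and the TET partner Ogt, a sugar transferase, at 3.096-fold, and in trophoblast the same 2, at 2.52- and 2.67-fold. Of the methyl-CpG readers 1 of 4 was higher in epiblast (Mbd2, 2.48-fold), and 0 of 5 were called in endoderm and in trophoblast. Of the methyl donor genes Mat2b, a regulatory subunit of the enzyme that makes S-adenosylmethionine, was higher in epiblast (2.10-fold), endoderm (3.39-fold) and trophoblast (2.22-fold), and Mat2a in endoderm (2.71-fold). Among 3 measured regulators Cxxc5 was higher in epiblast and endoderm, 2.04- and 2.56-fold, and the RNA-binding Lin28a in endoderm and trophoblast, 2.67- and 5.09-fold. Nsd1, a histone methyltransferase, was lower in epiblast, at 208 CPM against 428. The median log2 differences of these 6 lists, in the order maintenance, imprint protection, readers, demethylation, methyl donors and regulators, were -0.23, -0.54, 0.10, 0.26, -0.21 and 0.21 in epiblast, where all genes had 0.01. In endoderm they were 0.42, 0.62, 0.38, 0.34, 0.92 and 1.196, against 0.18 for all genes, and in trophoblast 0.66, 0.27, 0.31, 0.30, 0.01 and 0.65, against 0.05. For E5.25 against E4.75, in the same order, the epiblast medians were -0.33, -0.68, -0.10, -0.05, -0.19 and -0.15, against -0.10 for all genes. The endoderm medians were then -0.06, 0.16, -0.06, 0.12, -0.14 and 0.07, against -0.04. Trophoblast had 0.16, 0.03, -0.17, -0.09, 0.02 and 0.06, against -0.11. Of the 15 S phase genes 1 was higher and 1 lower in epiblast at E5.5 against E4.5. In endoderm 3 were higher and in trophoblast 4, with list medians of 0.12, 0.63 and 0.67. For E5.25 against E4.75 the S phase medians were -0.25, 0.02 and 0.05.

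Germline genes that promoter methylation is known to silence were mostly low, and 5 of 14 reached 10 CPM in epiblast. Of these 3 were lower at E5.5 than at E4.5: Hormad1, a meiotic chromosome axis gene, at 73.9, 77.6, 61.3, 43.7 and 16.4 CPM from E4.5 to E5.5, Stk31 at 69.5, 53.1, 44.9, 32.8 and 15.9, and the tubulin Tuba3a at 39.1, 29.99, 20.4, 15.1 and 12.5. The other 2 were higher, among them the RNA helicase Ddx4 at 2.15-fold, from 5.51 to 11.9 CPM, with a list median of -1.13. Of all genes 18.2% were lower and 13.0% higher. For E5.25 against E4.75 in epiblast, 6 were measured, with 2 higher and 0 lower, where 2.30% of all genes were higher and 7.54% lower. The list median was then -0.23, against -0.10 for all genes. In endoderm, of 4 measured, 1 was higher and 1 lower at E5.5 than at E4.5, where 17.0% of all genes were higher and 11.9% lower. Ddx4 was 4.56-fold higher there, at 53.3 CPM against 11.7, and Hormad1 lower, at 2.10 CPM against 11.7. No methylation was measured here.

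The genes whose pattern over the 24 combinations was most like that of a member were found by Pearson's r of log2 levels among 6464 genes, as a description, since combinations of a stage share a library. Uhrf1 lay nearest to the replicative helicase gene Mcm2 (0.92), Hdac1 (0.90) and Riok2 (0.90), and Dnmt1 to Riok2 (0.93), Nup88 (0.91) and Mcm3 (0.91). Dnmt3b lay nearest to Zcchc3 (0.92), Ggct (0.91) and Zic2 (0.91), Dnmt3a to Shroom2 (0.89), Col18a1 (0.89) and Rrp36 (0.88), and Dnmt3l to Arhgef28 (0.88), Dgkh (0.87) and Rnf165 (0.87). Tet1 lay nearest to Trps1 (0.96), Zscan10 (0.94) and Syt9 (0.93), Tet2 to Arih2 (0.93), Atg4b (0.89) and Cmss1 (0.89), and Tet3 to Tead2 (0.90), Ssbp3 (0.89) and Fnbp1l (0.85). Among the members r was 0.83 for Dnmt1 and Uhrf1, 0.84 for Dnmt3a and Dnmt3b, 0.75 for Dnmt3b and Tet3, 0.25 for Dnmt3b and Dnmt3l, and -0.71 for Dnmt3b and Tet2.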

How the data were processed

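Each deposited matrix gives raw UMI counts, and per the file headers Cell Ranger 7.1.0 wrote it. Builds named in the submitters' processing notes are mm10, GRCm38 and hg38, and the sources used here do not give the role of hg38, the strand setting or the counting of introns. Barcodes were kept at 1500 or more detected genes and up to 15% mitochondrial UMIs, the cells with the highest Scrublet doublet scores were removed (0.8% per 1000 cells, at most 8%), and cells were clustered over all libraries (2000 variable genes, 30 principal components, 15 neighbours, Leiden resolution 1.0; scanpy 1.11.5, python-igraph 0.11.9, numpy 2.4.6, scipy 1.17.1, Python 3.11.15). A cluster was named from marker lists, and one with a second lineage's score above 0 was left out as mixed. Raw UMIs were summed per class and library. With 1 library per stage there is no test. The 13 alternatives changed filters, clustering, scaling, pseudocount (10 or 1 CPM), thinning or the starting stage. All 8 members are named, and up to 4 genes per list, those with the largest differences. The members and lists were chosen with earlier results of these data known.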

Additional observations from a re-analysis of the deposited data

How the results depend on the processing

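No paired analysis was possible because each stage is 1 library, and for the same reason no library could be left out in turn. Over 13 alternatives 1110 of 1168 member differences kept their call, 396 of 417 called ones stayed called, and none of the called ones changed sign. The change of pseudocount could not alter a call, since calls rest on plain CPM ratios. It supplied 96 of the kept differences and 34 of the kept calls. Dropping the minimum CPM also kept all 96 and 34. The largest effect came from the starting stage: when E5.5 was set against E4.75 and not E4.5, the members called were 1 in place of 3 in epiblast, 0 in place of 3 in endoderm and 1 in place of 5 in trophoblast. Epiblast over endoderm at E4.5 had 3 called members, 6 with median-of-ratios scaling and 5 with thinned cells. Parietal endoderm over endoderm at E5.5 had 3, and 1 with mixed clusters kept. Endoderm at E5.25 against E4.75 had 0, and 1 with a minimum of 1000 genes or no doublet removal. Trophoblast at E5.25 against E4.75 had 1, then 2 with a minimum of 1000 or 2500 genes, a mitochondrial limit of 10% or no doublet removal, and 0 with each library clustered alone or with median-of-ratios scaling. The cause was not tested. With the mitochondrial limit of 10% no cluster was named giant cells, so that comparison has no value. Depth limits the points with few UMIs, such as Tet3 in E3.5 epiblast (9 UMIs) and Dnmt3a and Tet3 in E5.5 parietal endoderm (27 and 24).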

Other observations

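At E5.5 the 18592 barcodes with fewer than 1500 detected genes, which entered no class, held 23690237 UMIs. Their levels were 1016 CPM for Dnmt3b, 290 for Uhrf1, 129 for Dnmt1, 63.5 for Dnmt3l and 17.4 for Tet2, beside 213 for Pou5f1.

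Ddx4, the germline RNA helicase, was higher in endoderm than in the other classes at every stage from E4.5, with 11.7, 28.3, 40.5, 49.4 and 53.3 CPM, against 5.01 to 12.3 CPM in epiblast, 5.41 to 15.4 in parietal endoderm and at most 3.07 CPM in trophoblast and giant cells. Zfp57, the zinc finger that protects imprints, stood at 65.6 CPM in E3.5 epiblast and 7.26 at E5.5, while parietal endoderm had 12.6, 19.1, 17.0 and 29.8 CPM from E4.75.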
